A study of Mus musculus with 20 samples.

Results

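The variable (V) segments of the T cell receptor α and β chains were measured as genes in RNA sequencing of mouse splenic T cells. The segments were taken as every gene of the count table whose identifier maps to a GRCm38 gene with a symbol beginning Trav or Trbv, which gave 163 of 49315 genes, 128 Trav and 35 Trbv. The cells were CD4+CD25- effector T cells from spleens of Fl-Pcbp2/CD4cre mice (CKO) and control littermates (CTL), labelled as more than 99% pure. Cre in the CKO line is driven by the Cd4 promoter, which is active from the developing thymocyte on, so the floxed gene is deleted before the cells reach the spleen. Pcbp2 encodes an RNA-binding protein of the poly(C)-binding family. The groups were CKO cells at 6 h with CD3/CD28 beads (3 libraries), CTL cells at 6 h with the same beads (5 libraries), CKO cells at 0 h (6 libraries) and CTL cells at 0 h (6 libraries). The age and the strain background of the mice were not given in the sources used here.

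During T cell development, each cell joins one V segment of the α locus to a joining (J) segment, and one V segment of the β locus to a diversity and a joining segment, and transcribes the joined exon together with a constant exon. The V segment carries the leader and most of the variable domain, including the loops that contact the major histocompatibility molecule, and ends in a conserved cysteine codon where the hypervariable junction begins. In a pool of cells the RNA of each V segment therefore reports how many cells carry it and how much receptor RNA those cells hold, and fewer cells of a type and less RNA per cell cannot be told apart. The mouse α locus holds a duplicated stretch, whose copies are marked d and n in the segment names, and so many Trav segments have near-identical partners.

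The 20 libraries held 26427467 to 85608113 counts in genes. The shallowest, CTL 6 h number 4.24, also stood apart in V segment use, and results that rest on it are given with and without it. Pcbp2 stood at 7.27 to 11.3 CPM (counts scaled to a common library total) in CKO cells and 262 to 348 CPM in CTL cells at 6 h. At 0 h it stood at 13.1 to 22.1 CPM in CKO cells and 261 to 396 CPM in CTL cells, so no CKO library overlapped a CTL library. In the CKO 0 h libraries 4.24 and 5.6, labelled male, Xist stood at 1160.0 and 1353 CPM, against the label. The summed CPM of 5 T cell markers was 1792 to 2115 in CKO and 1549.6 to 1977 in CTL cells at 6 h, and 3362 to 4136 in CKO and 2949 to 3866 in CTL cells at 0 h, with none of them at 0. Markers of other cells were present too, and 7 B cell genes summed to 144 to 370.3 CPM in CKO and 125 to 174 CPM in CTL cells at 6 h, and to 527 to 1030.0 CPM in CKO and 528 to 904 CPM in CTL cells at 0 h. The 2 CD8 genes summed to 14.6 to 21.1 CPM in CKO and 12.0 to 17.7 CPM in CTL cells at 6 h, and to 26.5 to 52.4 CPM in CKO and 19.2 to 114 CPM in CTL cells at 0 h. The 6 γδ T cell genes summed to 7.38 to 12.7 CPM in CKO and 4.39 to 14.6 CPM in CTL cells at 6 h, and to 14.8 to 27.6 CPM in CKO and 12.0 to 35.2 CPM in CTL cells at 0 h. The 5 myeloid genes summed to 7.85 to 17.9 CPM in CKO and 7.83 to 16.4 CPM in CTL cells at 6 h, and to 35.7 to 90.3 CPM in CKO and 29.1 to 97.2 CPM in CTL cells at 0 h, and all 5 were called lower at 6 h in both genotypes. The 4 regulatory T cell genes (Foxp3, Il2ra, Ikzf2 and Ctla4) summed to 475 to 691 CPM in CKO and 320 to 483 CPM in CTL cells at 6 h, and to 204 to 661 CPM in CKO and 150.4 to 295 CPM in CTL cells at 0 h, with none of the 4 called between the genotypes. The part of these lists in the results that follow was not tested.

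The β segments to which the results below return are shown by the last 60 bases of their V exons, on the coding strand, with the codon of the conserved cysteine in capitals. They lie on GRCm38 at chr6:41116409-41116468 (Trbv13-1), chr6:41121773-41121832 (Trbv13-2), chr6:41130526-41130585 (Trbv13-3), chr6:41135557-41135616 (Trbv14), chr6:41178989-41179048 (Trbv19) and chr6:41188918-41188977 (Trbv20) on the plus strand, and at chr6:41557693-41557752 (Trbv31) on the minus strand. Trbv31 is the β segment that lies beyond the constant genes in inverted orientation and is joined by inversion. The 3 Trbv13 segments are the most used family, and Trbv13-2 and Trbv13-3 differed at 24 of 294 bases of the whole V exon.
Trbv13-1: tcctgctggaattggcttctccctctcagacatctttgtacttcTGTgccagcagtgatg
Trbv13-2: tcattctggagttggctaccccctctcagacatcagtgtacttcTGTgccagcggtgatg
Trbv13-3: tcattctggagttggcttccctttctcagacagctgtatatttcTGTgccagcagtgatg
Trbv14: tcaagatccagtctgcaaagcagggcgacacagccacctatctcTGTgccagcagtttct
Trbv19: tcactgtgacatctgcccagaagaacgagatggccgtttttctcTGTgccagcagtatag
Trbv20: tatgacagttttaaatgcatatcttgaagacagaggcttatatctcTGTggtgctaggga
Trbv31: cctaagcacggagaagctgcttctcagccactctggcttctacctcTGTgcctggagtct

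How far a read can be assigned to 1 segment differed between the loci. Of the 35 Trbv segments, 32 had more than 50% of their 100-base stretches found in no other annotated transcript. Among the 128 Trav segments, 69 passed that mark and held 91.7% of all Trav counts, 19 had some unique stretches and held 7.54%, and 40 had none and held 0.766%. There were 38 Trav segments with a V exon identical to that of another one. No source used here states how reads that map to several places were treated, and the split of counts among such copies is uncertain. Trbv4 and Trbv5 overlap another annotated gene, 5830405F06Rik, on the same strand. The filter on low counts was passed by 108 segments, 83 Trav and 25 Trbv, while 7 Trav and 2 Trbv segments (Trbv8 and Trbv27) had no count in any library.

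Trbv13-2 was the most used β segment in every group. Per exon length its share of the Trbv total averaged 19.9% ± 1.56 over the 20 libraries (SD, n = 20), ahead of Trbv16 at 7.93% ± 0.744, Trbv13-3 at 6.82% ± 0.649 and Trbv13-1 at 6.61% ± 0.589. The next in order were Trbv1 at 6.37% ± 0.480, Trbv31 at 5.91% ± 0.642, Trbv12-2 at 5.10% ± 0.513, Trbv20 at 5.07% ± 0.915, Trbv3 at 5.07% ± 0.665 and Trbv2 at 5.02% ± 0.517. Below Trbv13-2, the steps between Trbv16 and Trbv13-3 and between Trbv31 and Trbv12-2 exceeded the SD of both segments, and the other neighbours in this order differed by less than the larger of their SDs. The rest of the text gives shares of counts, without division by length, since they are compared between groups and not between segments. On that scale Trbv13-2 took 18.1, 20.6 and 20.7% of Trbv counts in CKO cells and 16.6, 17.0, 17.5, 18.0 and 18.0% in CTL cells at 6 h. At 0 h it took 15.4 to 18.2% with a median of 16.8% in CKO cells and 15.5 to 17.4% with a median of 16.6% in CTL cells. The 3 Trbv13 segments together made up 29.5% of Trbv counts, and the 13 Trbv pseudogenes 0.598%.

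**Figure D1:**
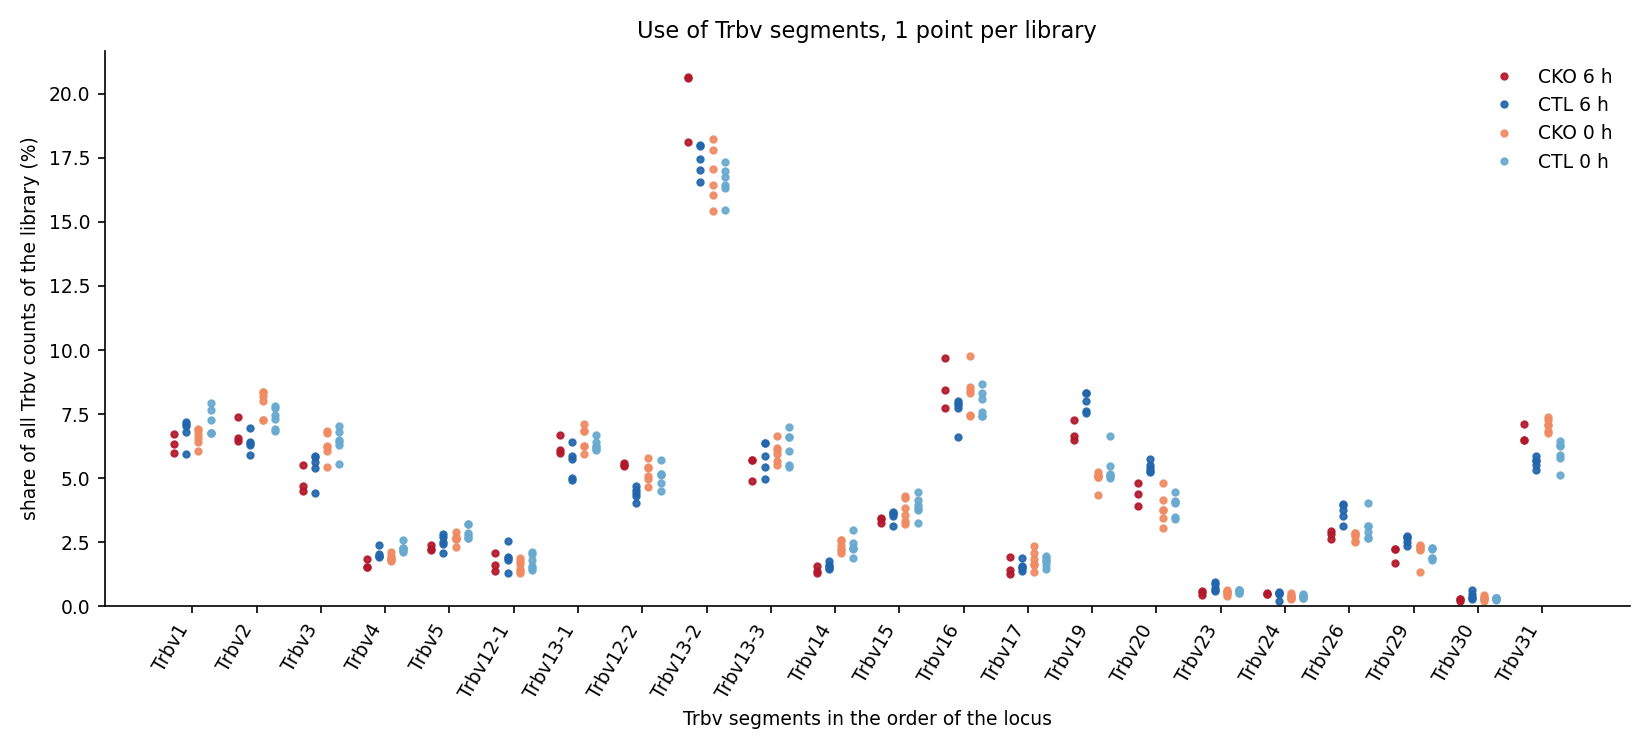
Share of the library's Trbv counts (percent, vertical axis) for the more used Trbv segments in the order of the β locus, with 1 point per library, coloured by group. Trbv13-2 lies above every other segment in all 20 libraries.

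Use of the α locus was spread over many more segments. Per exon length the highest mean shares of the Trav total were those of Trav14n-3 at 4.42% ± 0.712, Trav13-1 at 4.32% ± 0.356, Trav4-4-dv10 at 3.91% ± 0.645, Trav9-4 at 3.68% ± 0.392 and Trav14-2 at 3.64% ± 0.447 (SD, n = 20). Trav3-3, Trav14-3, Trav14-1, Trav5-4 and Trav14d-3-dv8 completed the leading 10, between 2.87% and 3.52%, and neighbours in this order differed by less than the larger of their SDs. By family, the 9 Trav14 segments held 17.5% of Trav counts, Trav9 12.2%, Trav7 10.6%, Trav6 9.01% and Trav13 8.80%. The d copies held 11.3%, the n copies 14.0% and the remaining 55 segments 74.7%.

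Position along the α locus went with use, though position and duplication cannot be told apart here. When the 128 segments were cut into 3 runs of near-equal number by position, the run nearest to the J segments held 69.7 to 71.6% of Trav counts in CKO and 55.8 to 69.2% in CTL cells at 6 h, and 70.3 to 72.9% in CKO and 68.4 to 70.4% in CTL cells at 0 h. The run farthest from the J segments held 8.32 to 9.59% in CKO and 10.03 to 11.6% in CTL cells at 0 h. These 2 groups did not overlap, and the CKO libraries were the lower ones. The middle and nearest runs did overlap between genotypes at 0 h. So did the d copies, which make up most of the farthest run, at 9.61 to 11.5% in CKO and 11.3 to 12.1% in CTL cells. At 6 h the farthest run held 8.75, 8.84 and 10.2% in CKO cells and 9.67, 10.8, 10.8, 10.9 and 19.5% in CTL cells, where the highest value was that of CTL 4.24 and the groups overlapped. The other runs did not overlap between genotypes at 6 h, by narrow gaps. The nearest run was higher in CKO cells, and the middle run lower, at 19.6 to 20.7% in CKO and 20.8 to 24.8% in CTL cells. No test was run on these sums. All d and n copies lie in the farthest and middle runs and none in the nearest, so the uncertain assignment of reads among copies also follows position.

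**Figure D2:**
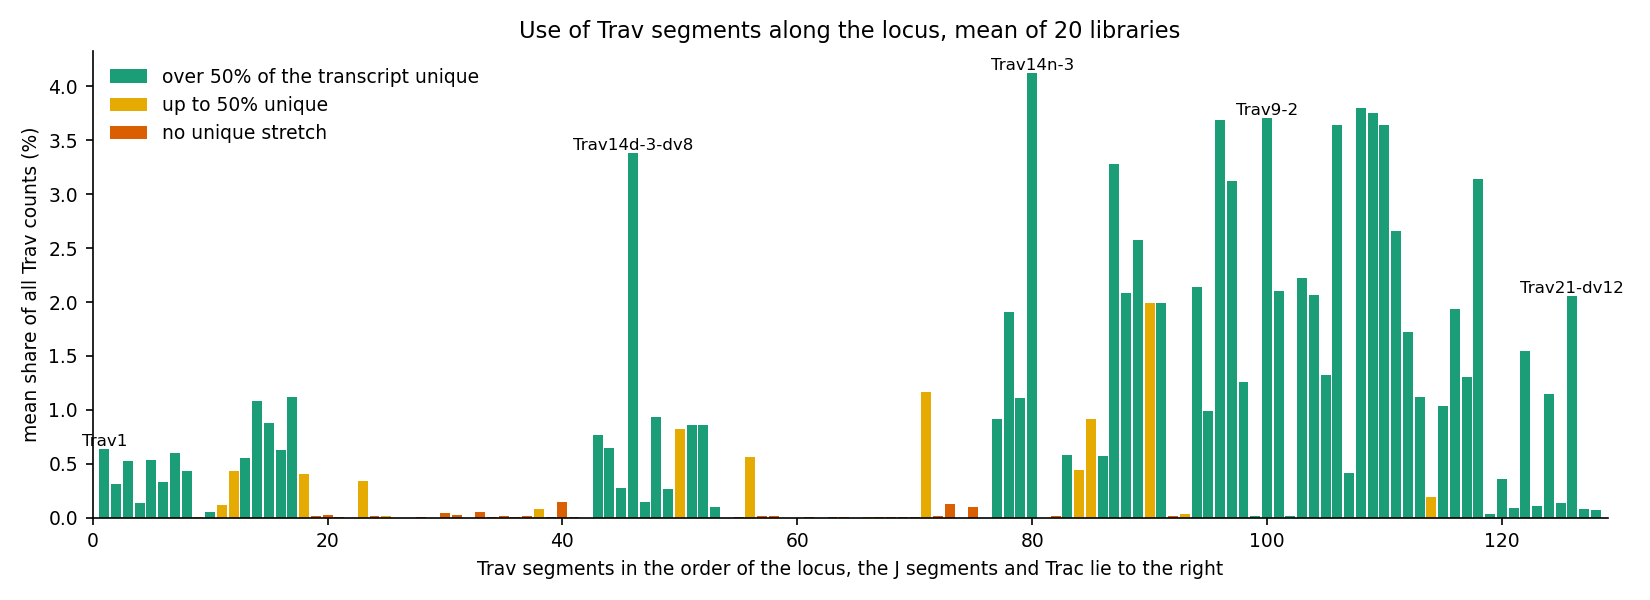
Mean share of Trav counts over the 20 libraries (percent, bars) for the 128 Trav segments in the order of the α locus, coloured by how much of the transcript is unique, with the J segments to the right. The taller bars lie mostly at the right, and segments with no unique stretch are near 0.

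The V segment totals of both chains were lower in each 6 h library than in any 0 h library of its genotype, relative to the rest of the transcriptome. The Trav total was 111, 113 and 121 CPM in CKO cells at 6 h, against 178 to 263 with a median of 217 CPM at 0 h. In CTL cells it was 65.1, 114, 121, 123 and 134 CPM at 6 h, against 166 to 255 with a median of 239.8 CPM at 0 h. In neither genotype did the times overlap, and the ratio of the means, 6 h over 0 h, was 0.526 in CKO and 0.485 in CTL cells. The Trbv total was 269, 321 and 329 CPM in CKO cells at 6 h, against 418 to 591 with a median of 479.5 CPM at 0 h. In CTL cells it was 108, 222, 229, 250.2 and 294 CPM at 6 h, against 381 to 543 with a median of 500.3 CPM at 0 h. Again the times did not overlap, with ratios of 0.619 in CKO and 0.450 in CTL cells. The lowest value of both totals at 6 h was that of CTL 4.24. In that library the constant genes were the highest of the CTL libraries at 6 h, at 532 (Trac), 465 (Trbc1) and 691 CPM (Trbc2). Its ratio of the Trbv total to summed Trbc1 and Trbc2 levels was 0.0934, against 0.340 to 0.409 in the other CTL libraries at 6 h. Its low V totals were thus not matched by the constant genes, and the cause was not tested.

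**Figure D3:**
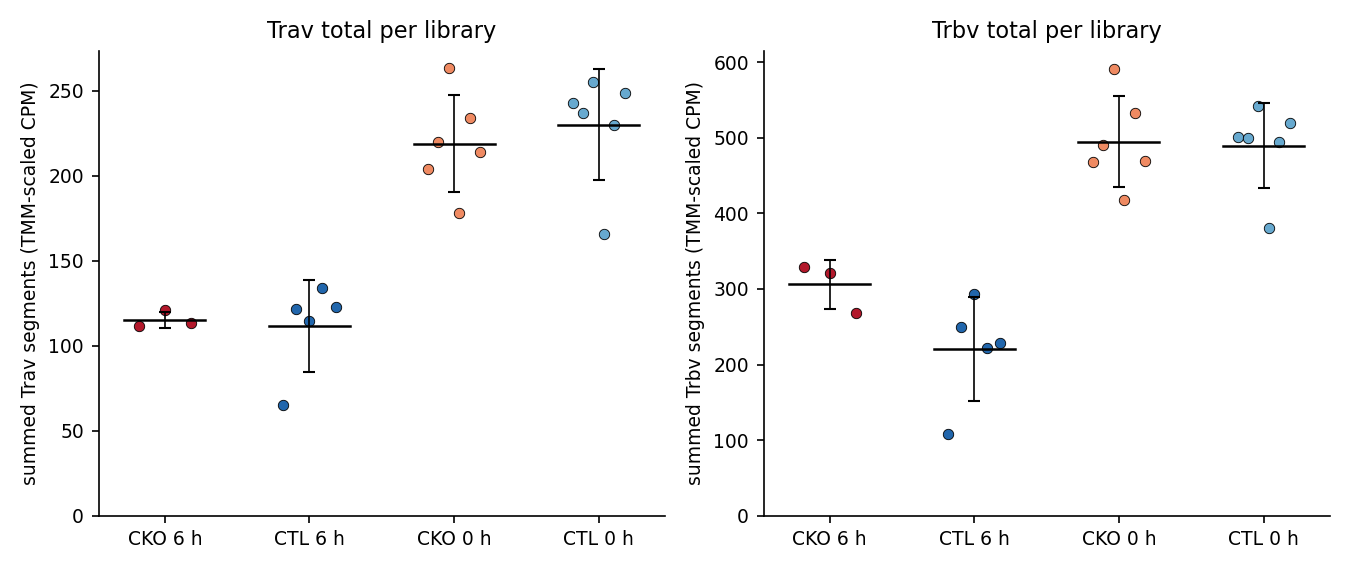
Summed Trav and summed Trbv counts in each library (points, in CPM), by group, with the group mean (line) and SD (bar). The totals at 6 h lie below those at 0 h in both genotypes, and the CKO and CTL libraries overlap at each time.

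Between genotypes the totals overlapped at both times. The CKO mean over the CTL mean was 0.952 for Trav and 1.01 for Trbv at 0 h, and 1.03 for Trav and 1.39 for Trbv at 6 h. With 1 library left out, the Trav ratio at 6 h ranged from 0.935, without CTL 6 h 4.24, to 1.09, and the Trbv ratio at 0 h from 0.968, without CTL 0 h 5.6, to 1.04, so that both lay on either side of 1. The Trbv ratio at 6 h ranged from 1.23 without CTL 6 h 4.24 to 1.51 without CTL 6 h 5.13. The ratio of Trbv to Trav counts was 2.37, 2.66 and 2.95 in CKO and 1.65, 1.66, 1.87, 2.06 and 2.57 in CTL cells at 6 h, and 2.19 to 2.35 with a median of 2.26 in CKO and 2.06 to 2.30 with a median of 2.12 in CTL cells at 0 h. In CKO cells this ratio at 6 h lay above all values at 0 h, while in CTL cells the times overlapped.

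Tested one by one as levels with edgeR's quasi-likelihood test, 67 of the 108 segments changed with time in CKO cells, 65 lower and 2 higher at 6 h, and 94 changed in CTL cells, 90 lower and 4 higher. Over all 28082 genes tested, the shares called were 36% in CKO cells (22.3% higher and 13.7% lower) and 60.7% in CTL cells (40.2% higher and 20.5% lower). The median log2 fold change of the segments was −0.88 in CKO cells, beside 0.15 over all genes tested, and −1.07 in CTL cells, beside 0.32 over all genes tested. There were 66 segments called in both genotypes, 98.5% of the CKO calls and 70.2% of the CTL calls, all with the same sign. The overlap of calls over all genes was not counted, so this overlap has no background, and 60.7% of all genes were called in CTL cells. The 4 that were higher in CTL cells were Trav5d-4, Trav5n-4, Trav4-1 and Trav7n-6, which had few counts and are described further on. Without the CKO 6 h library 11.18 the CKO count of calls was 42.

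Most genes of a list of 16, of which 15 were tested, were also lower at 6 h. The list holds receptor chains and signalling subunits, and also the coreceptor genes Cd4, Cd8a and Cd8b1 and the recombination genes Rag1, Rag2 and Dntt. In CKO cells 10 were lower and 1 higher at 6 h, beside 13.7% lower and 22.3% higher over all genes tested. In CTL cells 11 were lower and 3 higher, beside 20.5% lower and 40.2% higher. Those higher in CTL cells were Ptcra, Rag1 (2.08 ± 0.60, log2, SE) and Trat1 (0.57 ± 0.20). The α constant gene Trac changed by −0.99 ± 0.15 (log2, SE) in CKO and −0.72 ± 0.12 in CTL cells, and the β constant genes Trbc1 and Trbc2 by −0.91 ± 0.18 and −0.72 ± 0.15 in CKO and by −0.76 ± 0.15 and −0.70 ± 0.13 in CTL cells. Cd3e, a signalling subunit of the receptor complex, changed by −0.78 ± 0.11 in CKO and −0.90 ± 0.10 in CTL cells, and the coreceptor gene Cd4 by −0.94 ± 0.23 in CKO and −1.38 ± 0.19 in CTL cells. Cd247, which encodes the ζ chain, was not called, at 0.24 ± 0.13 in CKO and 0.21 ± 0.12 in CTL cells. Ptcra, the pre-receptor α chain of thymocytes, was higher at 6 h in both, by 2.45 ± 0.76 in CKO and 3.27 ± 0.69 in CTL cells, at means of 0.207 CPM in CKO and 0.632 CPM in CTL cells at 6 h, and of 0.387 CPM in CTL cells without CTL 4.24. The ratio of Trav to Trac levels was 0.346, 0.370 and 0.401 in CKO and 0.122, 0.326, 0.331, 0.342 and 0.370 in CTL cells at 6 h, and 0.312 to 0.383 with a median of 0.362 in CKO and 0.304 to 0.380 with a median of 0.353 in CTL cells at 0 h. The lowest of these was CTL 6 h 4.24, and the ranges of the 4 groups otherwise overlapped.

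To ask whether segments changed relative to each other, each was tested as a share of the Trav or Trbv total of its library. In CKO cells 14 of 108 segments changed in share between 6 h and 0 h, 10 higher and 4 lower, and in CTL cells 26 changed, 16 higher and 10 lower. The whole fit called 35.7% of genes in CKO cells (22.2% higher and 13.5% lower) and 60.4% in CTL cells (40.2% higher and 20.2% lower), where genes other than V segments were tested as levels. The median log2 change in share was −0.03 in CKO and −0.04 in CTL cells. There were 11 segments called in both genotypes, 78.6% of the CKO calls and 42.3% of the CTL calls, each with the same sign. Trav5d-4 and Trav5n-4 count as 2 of these, although their V exons are identical. The overlap of calls over all genes was not counted, so this overlap has no background. The 2 time comparisons share no library, but they are not independent. All 20 libraries set the spread in the fit. CKO and CTL libraries of equal number also deviated together over genes, at correlations of 0.26 to 0.62 at 0 h. Those of unequal number had a median of −0.02 and a range of −0.43 to 0.45. With a block for the number in the sample title and the genotype, which pairs the 6 h and 0 h libraries, 5 of the 14 CKO calls and 15 of the 26 CTL calls remained.

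Trbv19 had the most significant rise in share among β segments. In CKO cells it took 6.50, 6.66 and 7.27% of Trbv counts at 6 h, against 4.34 to 5.25% with a median of 5.07% at 0 h. CTL libraries gave it 7.54, 7.63, 8.02, 8.32 and 8.34% at 6 h, against 5.02 to 6.64% with a median of 5.15% at 0 h. Every 6 h library lay above every 0 h library of its genotype, and the share was higher at 6 h in 3 of 3 CKO and 5 of 5 CTL pairs of equal number. The log2 change was 0.45 ± 0.09 (SE) in CKO (adjusted p = 0.00123) and 0.56 ± 0.08 in CTL cells (adjusted p = 1.77e-05). Trbv20 took 3.92, 4.39 and 4.82% in CKO cells at 6 h, against 3.07 to 4.80% with a median of 3.77% at 0 h. CTL cells gave it 5.24, 5.29, 5.41, 5.51 and 5.77% at 6 h, against 3.41 to 4.48% with a median of 4.06% at 0 h, with no overlap in CTL cells only. It rose by 0.47 ± 0.10 in CTL cells (adjusted p = 0.000965), and the CKO change of 0.19 ± 0.12 was not called (adjusted p = 0.229).

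Trbv14 fell in share in both genotypes. In CKO cells it took 1.30, 1.37 and 1.56% of Trbv counts at 6 h, against 2.07 to 2.61% with a median of 2.33% at 0 h. For CTL cells the shares were 1.46, 1.50, 1.60, 1.60 and 1.79% at 6 h, against 1.90 to 2.97% with a median of 2.29% at 0 h. No 6 h library reached the lowest 0 h library of its genotype. The log2 change was −0.74 ± 0.13 in CKO (adjusted p = 0.00046) and −0.57 ± 0.11 in CTL cells (adjusted p = 0.000394). Trbv3 fell by 0.36 on the log2 scale in CKO (adjusted p = 0.0143, 0.0669 with the block) and by 0.24 in CTL cells (adjusted p = 0.0243, 0.0719 with the block). Trbv2 fell by 0.22 in CKO (adjusted p = 0.042, 0.337 with the block) and by 0.20 in CTL cells (adjusted p = 0.0189, 0.133 with the block).

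Trbv13-2, already the most used segment, rose further in CKO cells, by 0.23 ± 0.07 (adjusted p = 0.0209), and was not called in CTL cells at 0.07 ± 0.06 (adjusted p = 0.348). The CKO call was lost without the CKO 6 h library 5.6 (adjusted p = 0.111) and with the block (adjusted p = 0.282). In CTL cells Trbv12-2 fell by 0.21 (adjusted p = 0.0205, 0.176 with the block), Trbv29 rose by 0.33 ± 0.13 (adjusted p = 0.0378) and Trbv26 by 0.25 ± 0.10 (adjusted p = 0.0466). Among the rarely used segments, Trbv21 rose by 0.76 ± 0.31 (adjusted p = 0.0408), and the pseudogene Trbv22 by 1.83 ± 0.64 (adjusted p = 0.0182), both in CTL cells. The calls of Trbv21, Trbv22 and Trbv26 were lost with the block, and those of Trbv22 and Trbv26 also without CTL 6 h 4.24, in which Trbv22 had its highest share at 0.464%.

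**Figure D4:**
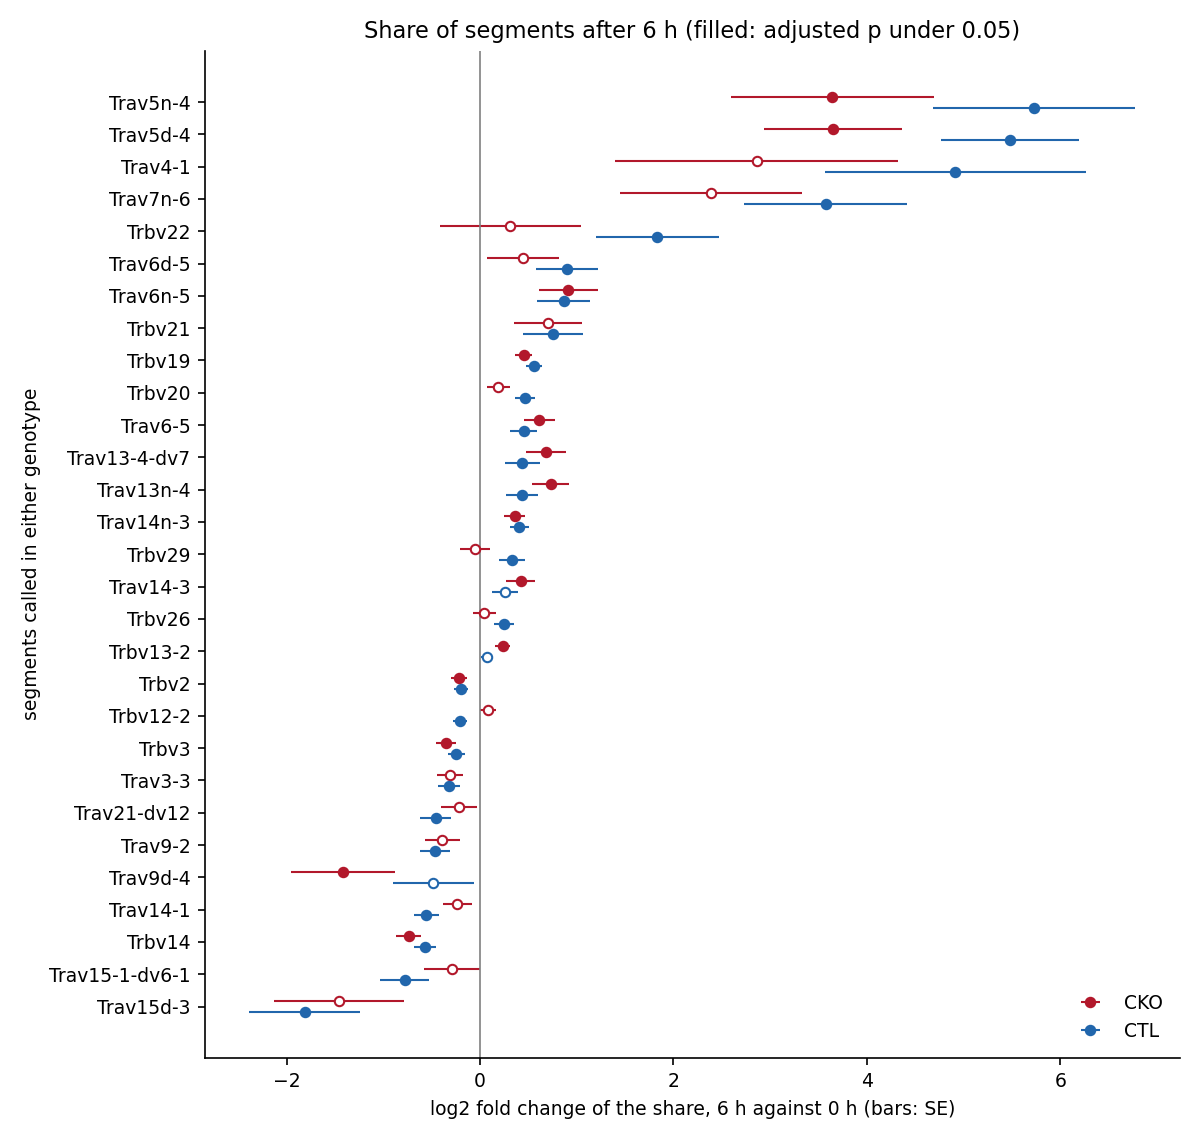
Log2 fold change of the share, 6 h against 0 h (horizontal axis, bars are SE), in CKO and in CTL cells for each segment called in either genotype, filled where the adjusted p was under 0.05. Trbv19 lies above 0 and Trbv14 below 0 in both genotypes, and the widest bars belong to Trav4-1 and Trav5n-4, which had few counts.

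Within the Trav14 family the shares of single segments moved in different directions. Their V exon ends lie on the plus strand of GRCm38 at chr14:53554499-53554558 (Trav14-1), chr14:53763635-53763694 (Trav14-3) and chr14:53370516-53370575 (Trav14n-3), and the cysteine codon is again in capitals. Over the whole V exon Trav14n-3 and Trav14-3 differed at 6 of 309 bases, and 77.1% and 76.8% of their 100-base stretches were unique.
Trav14-1: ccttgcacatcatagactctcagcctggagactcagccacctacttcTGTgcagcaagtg
Trav14-3: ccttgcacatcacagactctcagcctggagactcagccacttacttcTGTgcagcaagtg
Trav14n-3: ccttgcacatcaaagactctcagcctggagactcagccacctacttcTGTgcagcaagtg

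Trav14n-3 took 4.21, 4.60 and 4.69% of Trav counts in CKO cells at 6 h, against 2.89 to 4.03% with a median of 3.52% at 0 h. Its CTL shares were 4.66, 4.89, 4.96, 5.10 and 5.51% at 6 h, against 3.60 to 3.97% with a median of 3.83% at 0 h. The 6 h libraries were the higher ones and did not overlap those at 0 h in either genotype. The log2 change was 0.36 ± 0.11 in CKO (adjusted p = 0.0176, 0.162 with the block) and 0.41 ± 0.10 in CTL cells (adjusted p = 0.00142). Trav14-3 rose in CKO cells by 0.42 ± 0.15 (adjusted p = 0.0394, 0.143 with the block) and was at 0.26 ± 0.13 in CTL cells (adjusted p = 0.104, 0.048 without CTL 6 h 4.24). Trav14-1 took 2.52, 2.70 and 3.61% in CKO cells at 6 h, against 2.95 to 3.64% with a median of 3.58% at 0 h. CTL libraries gave it 1.88, 2.28, 2.41, 2.49 and 2.80% at 6 h, against 3.08 to 4.33% with a median of 3.41% at 0 h, and only in CTL cells were the times apart. It fell in CTL cells by 0.55 (adjusted p = 0.00137), and its CKO change of −0.23 ± 0.15 was not called (adjusted p = 0.232). The difference between the genotypes' responses was not called for any of the 3.

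Segments of the Trav6 and Trav13 families also rose in both genotypes. Trav6-5 took 2.47, 2.62 and 2.62% in CKO cells at 6 h, against 1.40 to 1.91% with a median of 1.70% at 0 h. CTL cells gave it 2.10, 2.11, 2.11, 2.12 and 3.29% at 6 h, against 1.60 to 1.83% with a median of 1.68% at 0 h. In each genotype all 6 h libraries were higher, and the changes were 0.61 ± 0.16 in CKO (adjusted p = 0.00726, 0.107 with the block) and 0.45 ± 0.14 in CTL cells (adjusted p = 0.00928, 0.0607 with the block). Its copy Trav6n-5 rose by 0.91 ± 0.31 in CKO and 0.87 ± 0.27 in CTL cells (adjusted p = 0.0272 and 0.0104), and the CKO call was lost with the block. The copy Trav6d-5 rose in CTL cells by 0.90 ± 0.32 (adjusted p = 0.0219), a call lost with the block and without CTL 6 h 4.24, where it took 4.40%. Reads of these copies can be split between them, as 41.4% of the stretches of Trav6-5 and 21.3% of those of Trav6n-5 were unique. Trav13n-4 rose by 0.73 ± 0.19 in CKO and 0.44 ± 0.17 in CTL cells (adjusted p = 0.00676 and 0.0286). Trav13-4-dv7, a segment that can also join the δ chain, rose by 0.68 ± 0.21 in CKO and 0.44 ± 0.18 in CTL cells (adjusted p = 0.0164 and 0.0442). With the block, neither of these last 2 was called, at adjusted p of 0.0975 and 0.0869 for Trav13n-4 in CKO and CTL cells and 0.192 and 0.0879 for Trav13-4-dv7.

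Among Trav segments lower at 6 h, Trav9-2 took 2.79, 3.10 and 3.40% in CKO cells at 6 h, against 3.60 to 4.51% with a median of 4.08% at 0 h. For CTL cells the shares were 1.58, 3.18, 3.21, 3.46 and 3.70% at 6 h, against 3.68 to 4.79% with a median of 4.20% at 0 h. The CKO times did not overlap, yet the CKO change of −0.39 ± 0.18 was not called (adjusted p = 0.102), while the CTL change of −0.47 ± 0.16 was (adjusted p = 0.0145). Which of the 2 was called depended on the fit. The CKO change was called without CTL 6 h 4.24 (adjusted p = 0.0086), with DESeq2 (adjusted p = 0.0374) and in a fit of the CKO libraries alone (adjusted p = 0.0305), and the CTL change was not called in a fit of the CTL libraries alone (adjusted p = 0.057). Trav3-3, Trav21-dv12 and Trav15-1-dv6-1 also fell in CTL cells, by 0.32, 0.46 and 0.78 (adjusted p = 0.0223, 0.0175 and 0.0126). The call of Trav3-3 was lost with the block (adjusted p = 0.106), and that of Trav21-dv12 in a fit of the CTL libraries alone (adjusted p = 0.0733). In CKO cells Trav3-3 changed by −0.31 (adjusted p = 0.0806), and was called with DESeq2 (adjusted p = 0.0446) and without CTL 6 h 4.24 (adjusted p = 0.0492). The pseudogene Trav15d-3, with a mean of 20.4 counts a library, fell in CTL cells by 1.81 (adjusted p = 0.0105). In CKO cells Trav9d-4, with a mean of 11.4 counts, fell by 1.42 (adjusted p = 0.0469). It had 1, 3 and 4 counts in CKO cells at 6 h, against 10 to 16 at 0 h. In the fit of all 20 libraries Trav9d-4 passed the filter on low counts only through 0 h libraries, where it is high. Trav15d-3 passed it mainly through 0 h libraries, with 0 to 10 counts in CTL cells at 6 h against 25 to 46 at 0 h. Both calls therefore add no support to the falls seen in the counts.

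The segments with the greatest fold differences between 6 h and 0 h were Trav5d-4 and Trav5n-4, whose V exons are identical, so that reads of the 2 cannot be told apart. Both had few counts. Trav5-4, the related segment with neither a d nor an n mark, differs from them at 6 of 291 bases and is shown with them on the plus strand of GRCm38, at chr14:53704224-53704514 (Trav5-4) and chr14:53001942-53002232 (Trav5d-4). Capitals mark the bases that differ: C14T, G82C, A89G, G90A, T187C and A193G, written as the Trav5-4 base, the position from the first base of the exon printed, and the Trav5d-4 base.
Trav5-4: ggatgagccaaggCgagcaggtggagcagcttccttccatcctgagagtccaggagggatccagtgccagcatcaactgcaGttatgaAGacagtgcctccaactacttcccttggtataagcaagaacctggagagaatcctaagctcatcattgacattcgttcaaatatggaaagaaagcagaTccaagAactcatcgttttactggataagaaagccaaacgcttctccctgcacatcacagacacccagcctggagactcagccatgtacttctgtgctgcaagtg
Trav5d-4: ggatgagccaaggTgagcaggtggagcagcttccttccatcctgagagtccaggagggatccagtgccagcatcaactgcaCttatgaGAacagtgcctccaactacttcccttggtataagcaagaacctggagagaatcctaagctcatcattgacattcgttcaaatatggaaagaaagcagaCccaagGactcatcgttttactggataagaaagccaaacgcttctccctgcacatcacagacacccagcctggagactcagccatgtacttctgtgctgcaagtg

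Trav5d-4 had 9, 16 and 18 counts in CKO cells at 6 h, against 1 to 3 at 0 h. In CTL cells it had 8, 9, 20, 30 and 33 counts at 6 h, against 1 to 2 at 0 h, and CTL 4.24 held 33 of them. The 6 h libraries were above all 0 h libraries in both genotypes. Taken over summed counts, its share of Trav at 6 h over that at 0 h was 13.6 (7.04 to 28.3) in CKO and 32.6 (15.9 to 77.6) in CTL cells, with 95% exact intervals that cover counting error only. Without CTL 4.24 the CTL ratio was 23.3 (11.2 to 56.2). For Trav5n-4 the ratio was 13.8 (6.14 to 34.8) in CKO and 35.7 (15.7 to 100.0) in CTL cells, and 21.4 (9.10 to 61.2) in CTL cells without 4.24. Both were called in both genotypes, with adjusted p of 0.000942 in CKO and 6.72e-06 in CTL cells for Trav5d-4 and 0.0124 in CKO and 0.000207 in CTL cells for Trav5n-4. In the fit of all 20 libraries both passed the filter on low counts only through 6 h libraries, where they are high. These calls therefore add no support to the rise seen in the counts. In a fit of the CTL libraries alone neither passed the filter, nor did Trav5n-4 in a fit of the CKO libraries alone. The unique relative Trav5-4 took 2.87, 2.87 and 3.03% of Trav counts in CKO cells at 6 h, against 2.41 to 2.98% with a median of 2.79% at 0 h. Its CTL shares were 1.67, 2.39, 2.62, 2.65 and 2.83% at 6 h, against 2.29 to 2.75% with a median of 2.69% at 0 h, with times that overlapped in both genotypes. The pseudogene Trav4-1 and the segment Trav7n-6 were also called higher in CTL cells (adjusted p = 0.00434 and 0.00153). Of their counts at 6 h in CTL cells, library 4.24 held 50 for Trav4-1 and 27 for Trav7n-6. Without it Trav4-1 was not called (adjusted p = 0.058), and Trav7n-6 did not pass the filter. With it, Trav7n-6 too passed only through 6 h libraries.

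Several of these calls rested on single libraries or on the fit. In fits of the CTL libraries alone 12 of the 26 CTL calls were kept, 4 segments did not pass the filter (Trav4-1, Trav5d-4, Trav5n-4 and Trav7n-6), and 10 were not called (Trav13-4-dv7, Trav13n-4, Trav21-dv12, Trav6d-5, Trav9-2, Trbv12-2, Trbv21, Trbv22, Trbv26 and Trbv3, adjusted p from 0.0504 to 0.121). With no filter beyond a single count, 5 CKO calls (Trav14-3, Trav14n-3, Trav9d-4, Trbv13-2 and Trbv2) and 8 CTL calls (Trav13-4-dv7, Trav13n-4, Trav3-3, Trbv12-2, Trbv2, Trbv21, Trbv26 and Trbv29) were lost. Among fits that left out 1 of the 20 libraries, the calls of Trbv14, Trbv19, Trbv20 (in CTL cells), Trav6-5, Trav5d-4, Trav5n-4 and Trav14-1 (in CTL cells) were kept in every fit. Calls of β segments were lost for Trbv2 in CKO cells in 9 of 20 (adjusted p up to 0.169, without CKO 6 h 11.18), Trbv2 in CTL cells in 1 of 20 (adjusted p up to 0.0551, without CTL 0 h 5.6), Trbv3 in CKO cells in 2 of 20 (adjusted p up to 0.0911, without CKO 6 h 5.6) and Trbv3 in CTL cells in 2 of 20 (adjusted p up to 0.0776, without CTL 6 h 5.13). They were also lost for Trbv13-2 in CKO cells in 4 of 20 (adjusted p up to 0.111, without CKO 6 h 5.6), Trbv12-2 in CTL cells in 2 of 20 (adjusted p up to 0.0702, without CTL 0 h 5.6), Trbv29 in CTL cells in 6 of 20 (adjusted p up to 0.0794, without CTL 0 h 4.29) and Trbv26 in CTL cells in 17 of 20 (adjusted p up to 0.109, without CTL 6 h 10.28). Calls of α segments were lost for Trav14n-3 in CKO cells in 2 of 20 (adjusted p up to 0.0721, without CKO 6 h 11.18), Trav14-3 in CKO cells in 7 of 20 (adjusted p up to 0.13, without CKO 6 h 11.18), Trav13-4-dv7 in CKO cells in 1 of 20 (adjusted p up to 0.0759, without CKO 6 h 5.6) and Trav13-4-dv7 in CTL cells in 14 of 20 (adjusted p up to 0.15, without CTL 6 h 10.28). The same held for Trav13n-4 in CTL cells in 4 of 20 (adjusted p up to 0.072, without CTL 6 h 10.28), Trav3-3 in CTL cells in 2 of 20 (adjusted p up to 0.0531, without CTL 0 h 4.29), Trav9d-4 in CKO cells in 14 of 20 (adjusted p up to 0.207, without CKO 6 h 11.18) and Trav4-1 in CTL cells in 1 of 20 (adjusted p up to 0.058, without CTL 6 h 4.24).

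Between genotypes no segment was called in share or in level at either time. At 0 h, by share, 0 of 108 segments were called with edgeR's quasi-likelihood test, beside 0.719% of all genes, with 7 under 0.05 before adjustment. The calls by DESeq2 at 0 h were 2, Trbv31 and Trbv4. At 6 h, by share, 0 were called beside 0.256% of all genes, with 19 under 0.05 before adjustment, and with 1 call by DESeq2, Trbv12-2. By level the counts were 0 at 0 h, beside 0.705% of all genes, with 3 unadjusted and 1 by DESeq2 (Trav13d-1), and 0 at 6 h, beside 0.253% of all genes, with 12 unadjusted and 2 by DESeq2 (Trbv12-2 and Trbv13-1). The counts before adjustment stand at another threshold than the percentages beside them. No share over all genes was taken at that threshold, so they are not read as an excess. Segments named from single alternatives here were chosen after their values were seen. The median log2 level difference at 6 h, CKO over CTL, was 0.08 over the segments and −0.34 over all genes tested, with −0.09 over all genes without CTL 4.24.

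The inverted segment Trbv31 was the only one of the 108 whose CKO and CTL libraries did not overlap in share at 0 h, where 1.93% of all genes tested did not overlap in CPM. On the CPM scale 1 segment, or 0.926%, did not overlap, Trav6-3 at 0.650 to 1.10 CPM in CKO and 1.13 to 1.60 CPM in CTL cells, named after its values were seen. Trbv31 took 6.78 to 7.41% with a median of 7.08% of Trbv counts in CKO cells and 5.11 to 6.46% with a median of 6.09% in CTL cells. At 6 h it took 6.49, 6.50 and 7.10% in CKO and 5.31, 5.52, 5.68, 5.72 and 5.85% in CTL cells. The CKO libraries were the higher ones at both times, without overlap. The log2 difference was 0.24 ± 0.06 at 0 h (adjusted p = 0.092) and 0.25 ± 0.08 at 6 h (adjusted p = 0.299), so it did not pass the correction at either time. Over fits that left out 1 library each, the adjusted p at 0 h ranged from 0.0316, without CTL 6 h 4.24, to 0.338. It was called with DESeq2 (adjusted p = 0.00212) and not with the block by number (adjusted p = 0.185). The 0 h and 6 h libraries of 1 number and genotype resembled each other in Trbv use, as given below, so the 2 times are not independent.

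At 6 h the comparison was of 3 CKO with 5 CTL libraries, which fall apart more readily than 6 and 6. They did not overlap in share for 19 of the 108 segments, 9 higher and 10 lower in CKO cells, and no background exists on this scale, since other genes have no share. In CPM they did not overlap for 6 segments, or 5.56%, beside 6.69% of all genes tested. Trbv12-2 took 5.48, 5.53 and 5.61% in CKO cells and 4.03, 4.32, 4.44, 4.53 and 4.72% in CTL cells at 6 h, with every CKO library above every CTL library. The log2 difference was 0.33 ± 0.09 (adjusted p = 0.169), and DESeq2 gave an adjusted p of 0.0124. At 0 h its groups overlapped, at 4.67 to 5.78% with a median of 5.25% in CKO and 4.52 to 5.72% with a median of 5.15% in CTL cells. The segments with the greatest such differences among those above a mean share of 0.5% were Trav8-2, a pseudogene, at a mean of 1.28% in CKO and 0.797% in CTL cells, and Trav21-dv12 at 2.18% in CKO and 1.46% in CTL cells. Trav13-4-dv7 averaged 1.95% in CKO and 1.37% in CTL cells, and Trav5-1 0.388% in CKO and 0.584% in CTL cells. None of these 4 passed the correction, each at an adjusted p of 0.316.

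**Figure D5:**
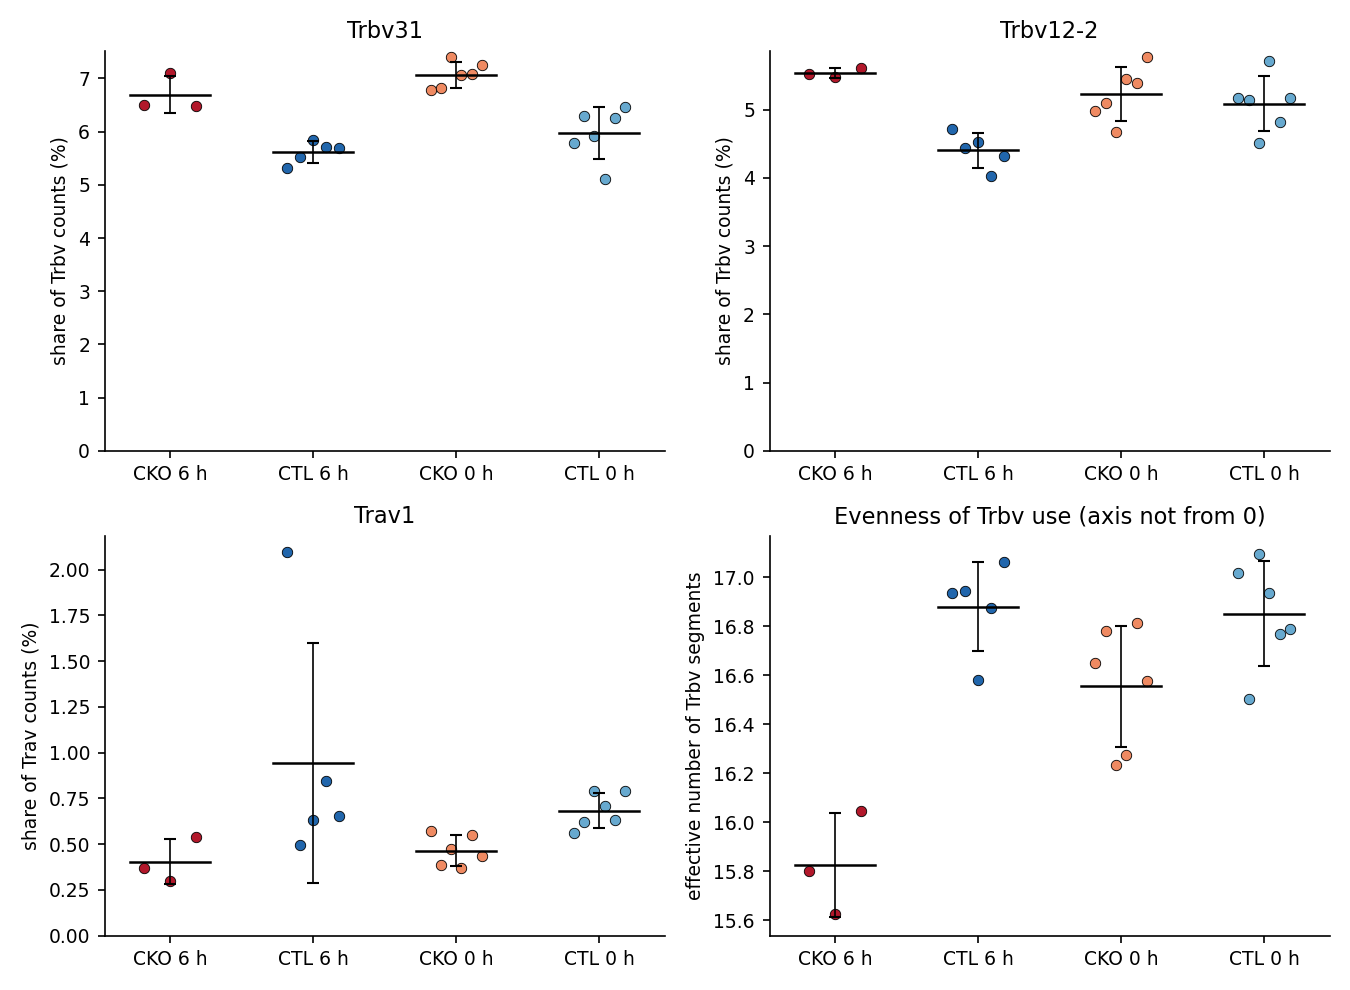
Shares (percent) of Trbv31, Trbv12-2 and Trav1, and the effective number of Trbv segments (a measure of evenness, axis not from 0), in each library (points), by group, with the group mean (line) and SD (bar). The CKO points of Trbv31 lie above the CTL points at both times and those of Trbv12-2 at 6 h, and the CKO points of evenness at 6 h lie below all others.

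Use of β segments was least even in CKO cells at 6 h. The effective number of Trbv segments, the exponential of the Shannon entropy of their shares, was 15.6, 15.8 and 16.0 in CKO and 16.6, 16.9, 16.9, 16.9 and 17.1 in CTL cells at 6 h, and 16.2 to 16.8 with a median of 16.6 in CKO and 16.5 to 17.1 with a median of 16.9 in CTL cells at 0 h. The 3 CKO libraries at 6 h lay below every other library. For Trav it was 52.9, 53.7 and 54.2 in CKO and 53.2, 53.8, 53.8, 54.2 and 59.0 in CTL cells at 6 h, and 51.1 to 52.9 with a median of 52.1 in CKO and 52.0 to 55.1 with a median of 54.2 in CTL cells at 0 h. The highest Trav value was that of CTL 6 h 4.24, and the genotypes overlapped at both times. No test was run on these numbers, which are scores over the segments.

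A direct test of whether the genotypes differed in their response to 6 h of stimulation called no segment. By share, 0 of 108 were called with edgeR's quasi-likelihood test, beside 0% of all genes, with 4 under 0.05 before adjustment (Trav12d-3, Trbv12-2, Trbv30 and Trav4-4-dv10) and no call by DESeq2. By level, 0 were called, beside 0% of all genes, with 4 unadjusted and 0 by DESeq2. The counts before adjustment again have no share over all genes at their threshold. Segments called in 1 genotype alone, such as Trbv20 in CTL and Trbv13-2 in CKO cells, were therefore not shown to respond differently.

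Some segments mark T cells with semi-invariant receptors. Trav11 forms the α chain of invariant natural killer T cells, paired in mice mostly with Trbv13, Trbv29 or Trbv1, and Trav1 that of mucosal-associated invariant T cells, paired mostly with Trbv19 or Trbv13. Trav11 and its copy Trav11d were identical over their shared 290 bases. At 6 h Trav11 had 0, 2 and 3 counts in the CKO libraries, against 2, 2, 2, 5 and 6 in the CTL libraries. Its copy Trav11d had 2, 2 and 7 counts in the CKO libraries, against 0, 2, 2, 3 and 4 in the CTL libraries. At 0 h Trav11 had 2 to 4 counts in CKO and 1 to 5 in CTL cells, and Trav11d 0 to 6 in CKO and 0 to 3 in CTL cells. Neither passed the filter on low counts, and no test was run. Trav11n, a further segment of the family named after its values were seen, had 11 to 21 counts in CKO and 7 to 25 in CTL cells at 0 h. It passed the filter, and its share was not called between genotypes in edgeR's test. The log2 difference was −0.03 ± 0.46 at 6 h (adjusted p = 0.962) and −0.04 ± 0.34 at 0 h (adjusted p = 0.985). Trav1 took 0.301, 0.370 and 0.539% of Trav counts in CKO and 0.495, 0.630, 0.655, 0.846 and 2.09% in CTL cells at 6 h. At 0 h it took 0.368 to 0.572% with a median of 0.455% in CKO and 0.561 to 0.791% with a median of 0.669% in CTL cells. The groups overlapped at both times, and 2.09% was the value of CTL 4.24. The log2 difference was −1.20 ± 0.40 at 6 h (adjusted p = 0.316) and −0.56 ± 0.29 at 0 h (adjusted p = 0.638). Markers of natural killer and natural killer T cells (3 genes) summed to 3.20 to 11.7 CPM in CKO and 4.21 to 12.8 CPM in CTL cells at 6 h, and to 7.66 to 25.7 CPM in CKO and 6.39 to 36.5 CPM in CTL cells at 0 h.

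Trbv12-1, Trbv12-2, Trbv15, Trbv16 and Trbv26 are segments whose T cells are deleted in mouse strains with certain endogenous mammary tumour virus superantigens. All 5 were in use in every library. At 0 h their median shares of Trbv counts in CKO and CTL cells were 1.55% and 1.71% for Trbv12-1, and 3.70% and 3.90% for Trbv15. They were 8.40% and 7.85% for Trbv16, and 2.77% and 3.02% for Trbv26. No share among these was called between the genotypes at 0 h.

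Libraries with the same number and genotype resembled each other in β use across time. For each library the shares of 20 Trbv segments were taken as deviations from the group mean and correlated with those of the other libraries. The correlation across segments had a median of 0.56 over the 8 pairs of a 6 h and a 0 h library with the same number and genotype, and of −0.12 over the 40 pairs with different numbers and the same genotype. Over 54 Trav segments the medians were 0.22 and −0.06. Segments are not independent replicates, and the deviations of 1 group sum to 0, so these values describe the libraries and have no test. Without CTL 6 h 4.24 the Trbv median of equal numbers was 0.62 over 7 pairs.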

How the data were processed

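Gene counts of 20 libraries were used as deposited by the authors, as raw counts of reads per gene. Per the labels' protocols, 100 ng of RNA with an integrity number of 5.0 to 8.7 went into stranded, paired libraries of 150-base reads. Per the submitters' processing notes, the tools were Trimmomatic 0.36, STAR 2.5.2b and featureCounts of Subread 1.5.2 with the GRCm38 build. The annotation release, the strand setting and the treatment of reads that map to several places were not given in the sources used here.

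Of 49315 gene identifiers, 49056 matched GENCODE M21 (GRCm38), which gave symbols, positions and the sequences printed, and 259 did not. Shares of 100-base stretches found in no other transcript were computed against 141767 transcripts. Genes with low counts were removed with filterByExpr (minimum count 10, minimum total 15), which left 28082. For levels, the quasi-likelihood test of edgeR 4.0.16 (R 4.3.3) was used (TMM scaling, 4 groups, all 20 libraries, two-sided, Benjamini-Hochberg over all genes tested, called under 0.05). For shares, the offset of each V segment was the log of the Trav or Trbv total of its library. DESeq2 1.42.0 was an alternative. CPM are TMM-scaled. Errors are SD or, for log2 fold changes, SE. The precision of counts is set by the depth of 26427467 to 85608113 counts, and intervals cover counting error only.

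The members and lists were chosen with earlier results of these data known. Segments were named by rule: the 10 Trav and the 10 Trbv of highest share per exon length, those called by share (up to 8 per comparison and direction) or by level only (up to 4), up to 4 non-overlapping ones per comparison at a mean share of at least 0.5%, the segments of invariant T cells, Trbv31, and segments deleted by superantigens. The titles carry numbers shared across groups. Deviations from group means, over genes, correlated at 0.12 to 0.68 within pairs of equal number. Pairs of unequal number had medians of −0.04 to −0.01 but reached 0.45. The CKO 6 h and 0 h pairs of equal number, at 0.12 to 0.19, lay inside the range of the unequal ones, −0.23 to 0.25. The numbers were taken as a possible pairing, less clear for the CKO time pairs, and fits with a block were run. Nothing says what a number stands for, and p-values measure the spread between these libraries. Within groups, all 43 pairs of libraries differed beyond sampling noise (chi-square per degree of freedom 18.7 to 271).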

Additional observations from a re-analysis of the deposited data

Results flagged for a closer look

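In groups of 5 or 6 libraries, 156 sets of values of the totals and the named segments were searched for a library far from the rest, and 23 values stood apart by Dixon's criterion at the 95% level. Chance alone gives about 1 in 20 groups. Of the 23, 12 came from the shallow library CTL 6 h 4.24.

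In that library the Trav total was 65.1 CPM, against 114 to 134 CPM in the other CTL libraries at 6 h, and the effective number of Trav segments was 59.0, against 53.2 to 54.2. Its shares of Trav counts were high for Trav1 (2.09%), Trav4-1 (2.14%), Trav5d-4 (1.41%), Trav5n-4 (1.54%), Trav7n-6 (1.15%), Trav6-5 (3.29%) and Trav11 (0.214%). They were low for Trav9-2 (1.58%) and Trav15-1-dv6-1 (0.385%), and its Trbv16 share of Trbv counts was low at 6.62%.

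The library CTL 0 h 5.6 had a Trav total of 166 CPM, a Trbv total of 381 CPM, a Trbv to Trav ratio of 2.30 and a Trav14-1 share of 4.33%. The totals were below, and the ratio and the share above, those of the other 5 CTL libraries at 0 h.

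The other values were single segments. At 0 h, Trbv19 took 4.34% in CKO 9.20, below its group, and 6.64% in CTL 5.13, above its group. Trav14-1 was low in CKO 0 h 4.29 at 2.95%, and Trbv29 was low in CKO 0 h 11.18 at 1.34%. In CTL 0 h 4.29, Trav5-4 was low at 2.29%. In CTL 0 h 4.24, Trav4-1 was high at 0.0737% and Trbv26 was high at 4.02%.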

How the results depend on the processing

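No call of a V segment turned its direction under the alternatives run (RLE size factors, DESeq2, no filter, only the groups compared, blocks, sex or Ddx3y terms, and libraries left out). By share, calls between CKO and CTL at 0 h numbered 0, with 2 by DESeq2 and 1 with only the groups compared (0 to 2 with 1 library left out). At 6 h they numbered 0, with 1 by DESeq2 (0 to 0). For 6 h against 0 h in CKO the 14 calls became 9 with no filter and 6 with a replicate block by number and genotype (8 to 21, 8 without CKO 6 h 5.13 or 5.6 and 9 without CKO 0 h 9.20). In CTL the 26 became 12 with only the groups compared and 16 with that block (20 to 28). By level, calls between CKO and CTL at 0 h numbered 0, with 1 by DESeq2 (0 to 0), and at 6 h 0, with 2 by DESeq2 and 1 with a Ddx3y term (0 to 2, 1 without CTL 6 h 4.24 and 2 without CTL 6 h 5.13). With time they ranged from 42 to 81 in CKO, 42 without CKO 6 h 11.18, and from 81, with only the groups compared, to 95 in CTL. A replicate block by number alone gave 12 share calls in CKO, 9 of them shared with the 14, and 25 in CTL, 24 of them shared. With 1 library left out, the CKO to CTL ratio of totals ranged from 1.23 to 1.51 for Trbv and from 0.935 to 1.09 for Trav at 6 h, and from 0.968 to 1.04 for Trbv at 0 h. Where calls differed between settings, the cause was not tested. The 40 Trav segments without a unique stretch, and segments of under about 10 counts a library, are limited by read assignment and depth.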
